A study of Homo sapiens with 36 samples.

Results

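Cultures of HK-2, a human line of immortalized proximal tubule epithelium, were exposed for 24 h to a low dose of a compound labelled Ota or of a compound labelled Aa, and the effect of each low dose was set against that of the other. The comparison uses 12 of the 36 arrays of the series, chosen by their titles. They are Ota low dose at 24 h, the Ota vehicle control at 24 h, Aa low dose at 24 h and the Aa vehicle control at 24 h, with 3 arrays each. Each array held total RNA of 1 culture, and the labels call the 3 cultures of a group biological replicates. All cultures were seeded 24 h before treatment and grown in medium supplemented with EGF, hydrocortisone, insulin, transferrin and selenite. Each control served both the low and the high dose of its compound. The labels neither spell out the compound names nor give the concentrations, so whether the low doses are matched between compounds is unknown. They are treated as not matched, and a difference between them is a difference between these exposures. The rest of the series holds the high doses and later times.

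The effect of a low dose is the mean log2 expression of its 3 arrays minus that of its own 3 controls, and the difference of effects is the Ota effect minus the Aa effect. A positive difference therefore means a higher value, relative to control, with Ota. Of 19775 genes represented, 10686 exceeded a log2 value of 4 on at least 3 of the 12 arrays and were tested with limma. The main fit compared group means and did not use the pairing of same-numbered cultures described below. A fit with the replicate number as a block uses it. Calls required an adjusted p below 0.05, two-sided and adjusted over all genes tested by the Benjamini-Hochberg method, and changes are given ± SE. The arrays resembled each other closely, with correlations across genes of 0.982 to 0.992 between replicates. The difference between the 3′ and 5′ control probes of ACTB, a sign of RNA quality, was 1.21 to 1.35 on Ota low arrays and 0.90 to 1.36 on their controls. It was 0.70 to 1.01 on Aa low arrays and 0.70 to 0.90 on their controls, and its part in the results was not tested. The vehicle controls of Ota and Aa differed in 745 genes (6.97%), 459 higher (4.3%) and 286 lower (2.68%) in Ota controls, where vehicle and experiment cannot be told apart. Of 13 proximal tubule markers with a probe set, PAX8, KRT8, KRT18, SLC3A1 and SLC4A4 exceeded 4 on all 12 arrays, while LRP2, CUBN, AQP1, ANPEP, GGT1, SLC22A6, SLC34A1 and SLC5A2 lay at or under 4 on all of them. Of 10 leukocyte markers with a probe set, 9 lay at or under 4 on all 12 arrays, PTPRC and CD14 included. The tenth, FCER1G, averaged 4.10 on Ota low arrays, 2.44 on Ota controls, 2.39 on Aa low arrays and 2.32 on Aa controls. The summed leukocyte level was 24.6 to 26.5 on Ota low arrays, 23.6 to 23.8 on Ota controls, 23.1 to 24.1 on Aa low arrays and 23.3 to 24.3 on Aa controls, and its part in the results was not tested. Of 10 endothelial markers, 8 lay at or under 4 throughout, PECAM1 and CDH5 included. ESAM exceeded 4 on all 12 arrays (4.01 to 5.55) and FLT1 on 1. Of 10 fibroblast markers, 6 lay at or under 4 throughout, while DCN, LUM, COL1A1 and S100A4 exceeded 4 on all 12 arrays. Of 13 distal nephron markers 10 lay at or under 4 throughout, while CLDN16, AQP3 and SCNN1A exceeded it. Of 5 podocyte markers with a probe set, NPHS1 and WT1 lay at or under 4 throughout. PTPRO (12.46 to 13.29), SYNPO and PODXL exceeded it on all 12 arrays. Of these 3, 2 were called lower with Aa and 0 with Ota, against 14.6% and 17.2% of all genes. The summed log2 level of the 13 proximal tubule markers was 75.9 to 76.8 on Ota low arrays, 76.3 to 77.6 on Ota controls, 73.5 to 75.4 on Aa low arrays and 75.7 to 77.2 on Aa controls.

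Several systems named below have a known order of events. E2F transcription factors switch on the genes that build replication forks and copy DNA, and cyclin E drives the entry into S phase, while a separate group of genes serves mitosis. Replication-dependent histone mRNAs normally end in a stem-loop instead of a poly(A) tail, and arrays primed from poly(A) read mostly their polyadenylated forms. In long genes an RNA polymerase needs hours to reach the end, so their mRNAs are sensitive to anything that stops elongation. These are general knowledge, not results of these data.

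Genes called with both low doses ran almost entirely the same way. DDX5, an RNA helicase, was among the genes that rose with both, and IFI35, an interferon-induced protein, and GYS1, the muscle form of glycogen synthase, among those that fell with both. Ota low dose changed 2580 genes (24.1%), 745 higher and 1835 lower. Aa low dose changed 2798 genes (26.2%), 1235 higher and 1563 lower. Both called 1233 genes, and 1163 of these (94.3%) changed in the same direction, 340 higher (3.18%) and 823 lower (7.7%). The shared genes made up 45.1% of the Ota calls and 41.6% of the Aa calls, and 10.9% of all genes tested. The correlation of the effects across the 10686 genes was 0.55 (Pearson) and 0.44 (Spearman), as a description, since genes are not independent. The effects share no array. With the replicate number as a block, 1812 genes were shared. The share of calls that were lower depended on scaling: it was 71.1% for Ota and 70.8% for the shared genes, but 51.1% and 57.8% when each array was shifted to the same median, and 55.6% and 58.7% after quantile normalization. That shift moved the median Ota effect over all genes to 0.067, against -0.058 without it. Without replicate 2 of Ota low dose, Ota called 1703 genes.

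**Figure D1:**
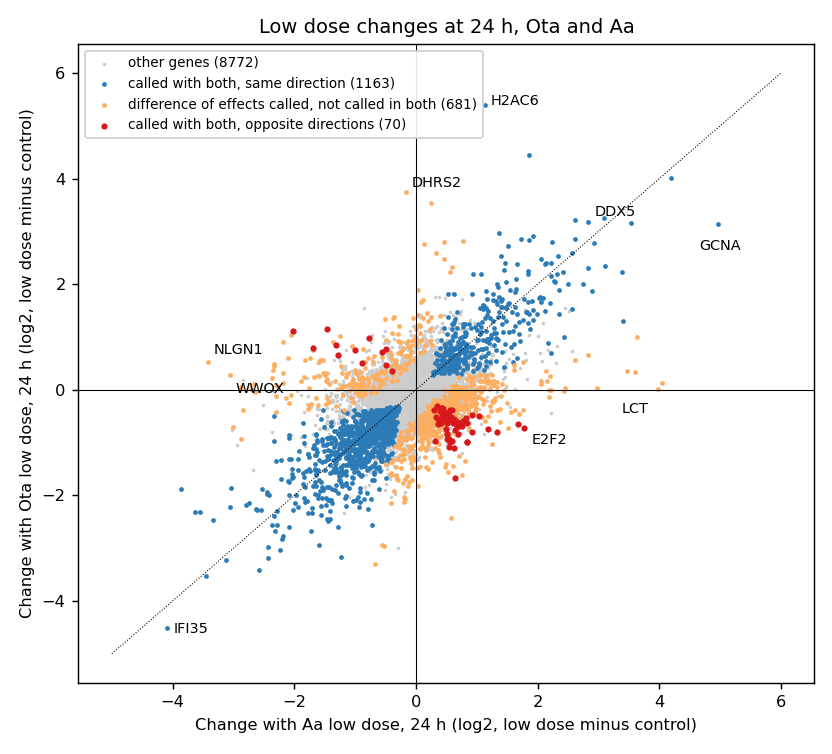
Change with Ota low dose (vertical) against change with Aa low dose (horizontal) at 24 h for the 10686 tested genes, each as log2 low dose minus control, with equal effects on the dotted line. The 1163 genes called with both in the same direction (blue) lie at the upper right and lower left, and the 70 called in opposite directions (red) at the upper left and lower right.

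The 6 genes that stood out most among the shared rises were NEB, GCNA, AOC3, DDX5, SLC27A3 and EEF1A1. DDX5 had log2 values of 10.95, 10.74 and 10.52 with Ota low dose, against 7.72, 7.51 and 7.43 in Ota controls. It had 10.53, 10.12 and 10.38 with Aa low dose, against 7.68, 7.37 and 7.48 in Aa controls. All treated arrays lay well above all controls with both compounds. DDX5 was read by the only probe set that carried it as a single symbol, so its rise could not be checked on another. Which form of its mRNA that set reads was not tested. Over all genes, the treated arrays lay wholly above or below controls in 42.1% with Ota and in 39.8% with Aa. The changes were 3.18 ± 0.15 with Ota and 2.83 ± 0.15 with Aa, and the difference of 0.35 had a 95% interval of -0.12 to 0.81 (adjusted p = 0.345). NEB, which encodes the giant muscle protein nebulin, lay at or under 4 on all control arrays and rose at least 3.01-fold with Ota and at least 3.94-fold with Aa. AOC3, a copper amine oxidase, rose at least 5.31-fold with Ota and at least 4.71-fold with Aa. Both passed the filter through the treated arrays alone, so these values are a description. EEF1A1, an elongation factor of translation, was read by a probe set that changed by 3.22 ± 0.14 with Ota and 2.61 ± 0.14 with Aa. The difference of 0.60 was not called (adjusted p = 0.0808, but 0.0306 with the replicate block). Its 4 brightest other sets, at log2 levels between 14.98 and 15.71, changed by -0.06 to 0.13 with either compound. Those sets lay close to the highest value on any array, 16.09. GCNA, a germ cell nuclear protein, rose in both but by more with Aa (4.96 ± 0.29) than with Ota (3.14 ± 0.29). Its difference of -1.82 ± 0.41 had an adjusted p of 0.0238, and leaving out 1 array ended that call in 5 of 12 fits (adjusted p up to 0.0558).

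The 6 shared falls by the same rule were IFI35, TLCD1, NFE2L3, MPI, GYS1 and MPND. GYS1 had 5.04, 4.35 and 4.8 with Ota low dose, against 8.13, 7.86 and 7.76 in Ota controls, and 5.86, 5.43 and 5.74 with Aa low dose, against 8.30, 7.87 and 8.18 in Aa controls. Every treated array lay over 2 log2 units below its controls. The changes were -3.19 ± 0.19 with Ota and -2.44 ± 0.19 with Aa, and their difference of -0.75 was not called (adjusted p = 0.116, but 0.0243 with the replicate block). IFI35 lay at or under 4 on all Ota low arrays, at least 9.10-fold lower than in controls. It changed by -4.10 ± 0.23 with Aa, where 2 of 3 low dose arrays lay at or under 4 (-3.62 with those set to 4). NFE2L3, a relative of NRF2, changed by -3.23 ± 0.38 with Ota and was at least 4.34-fold lower with Aa. With Ota, 2 of its 3 low dose arrays lay at or under 4 (-2.77 with those set to 4). For MPI, which makes mannose 6-phosphate available for glycosylation, the fall was at least 1.99-fold with Ota and at least 3.70-fold with Aa.

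Gene lists held few members that fell with both compounds. Over all genes, 17.2% fell and 6.97% rose with Ota, 14.6% fell and 11.6% rose with Aa, and 7.7% fell with both, and the counts below are read against these shares. Of 23 cholesterol synthesis genes, 5 fell with Ota (median change -0.28) and 8 with Aa (median -0.43), and the sterol enzymes TM7SF2 and SC5D fell with both, so that the Ota count and the shared count lay near the shares over all genes. TM7SF2 changed by -1.97 with Ota and -2.46 with Aa, and SC5D by -0.90 and -1.25. Over all genes the medians were -0.06 for Ota and -0.02 for Aa. TMEM97, a sterol-regulated membrane protein on this list, went the other way: it fell by 0.38 with Ota and rose by 0.30 with Aa, and its difference was called (adjusted p = 0.0159), but its single effects lost their call in some fits without 1 array, with adjusted p up to 0.0608 for Ota and 0.13 for Aa. Of 28 proteasome genes, 7 fell with Ota and 3 with Aa, and all 3 of these fell with both, which is near the share over all genes. PSME4, among these 3, changed by -0.36 with Aa (adjusted p = 0.0297). Its other probe sets read -0.60 and 0.86 with Aa, and the mean over sets, -0.04, was not called (adjusted p = 0.855). Shifted medians and quantile normalization also ended its Aa call (adjusted p = 0.0809 and 0.0577). TP53I3 and FBXO22 were the 2 p53 targets called in both, at -2.67 and -1.20 with Ota and -2.32 and -0.73 with Aa. STC2, a glycoprotein induced by stress, was the 1 gene of the ATF4 list that rose with both, by 1.21 and 1.63. Metal-regulated SLC30A1, a zinc exporter, rose with both, by 0.51 with Ota and 0.32 with Aa. TXNIP, a regulator of glucose uptake, had 0.56 ± 0.20 with Ota (adjusted p = 0.0703; 0.00274 with the replicate block) and 0.61 ± 0.20 with Aa (adjusted p = 0.0489). The Aa call was lost in 9 of 12 fits without 1 array (adjusted p up to 0.174) and in the fit of all 36 arrays (0.438).

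The difference of effects was called in 815 genes (7.63%), 250 higher with Ota (2.34%) and 565 lower (5.29%). Of these, 296 were called with Ota alone, 371 with Aa alone, 134 with both and 14 with neither. The genes lower in the difference were mostly those that fell with Ota alone (221) or rose with Aa alone (232). Those higher in it were mostly genes that fell with Aa alone (139) or rose with Ota alone (75). Both compounds called 70 genes in opposite directions (12 higher with Ota and lower with Aa, 0.112% of genes; 58 lower with Ota and higher with Aa, 0.543%). A fit with the replicate number as a block called 2078 differences and 214 opposite genes. The share of lower differences was 69.3%, and 53.6% or 57.6% after either rescaling; for opposite genes the share lower with Ota was 82.9%, and 64.1% or 65.3%. Of the 815 genes, 69 (8.47%) also differed between the vehicle controls. Leaving out 1 array gave 403 to 1354 differences. Among the 1163 shared genes 1099 had no called difference, and for 798 the 95% interval of the difference lay within 1 log2 unit of 0.

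Of 42 DNA replication genes, 19 fell and 0 rose with Ota, while 11 rose and 4 fell with Aa. The other members passed in neither direction. Over all genes 17.2% fell and 6.97% rose with Ota, and 11.6% rose and 14.6% fell with Aa. For the difference of effects, 15 were lower and 0 higher, against 5.29% lower and 2.34% higher over all genes. Their median changes were -0.34 with Ota and 0.23 with Aa. With arrays shifted to the same median, 9 fell with Ota and 12 rose with Aa, and 12 were lower in the difference. The fit of all 36 arrays called 8 lower in the difference and 5 higher with Aa, and leaving out 1 array gave 8 to 17 lower differences. E2F factors and G1 cyclins had 5 of 19 lower in the difference and 7 higher with Aa. With Ota 4 were lower, near the share over all genes. Of 23 recombination and Fanconi genes, 6 fell with Ota, 12 rose with Aa and 6 were lower in the difference. E2F2, a factor that drives S phase genes, had 6.48, 6.17 and 6.26 with Ota low dose, against 7.07, 6.91 and 7.10 in Ota controls, and 8.89, 8.77 and 8.84 with Aa low dose, against 7.06, 6.98 and 7.11 in Aa controls. The control levels of the compounds overlapped, and the treated arrays lay below them with Ota and above them with Aa. The changes were -0.72 ± 0.11 and 1.78 ± 0.11, and the difference of -2.51 ± 0.15 had an adjusted p of 3.15e-05. With the mean over the 3 probe sets of E2F2 its Ota change was no longer called (adjusted p = 0.121).

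Among replication genes RFC4 had the largest called difference. It is a subunit of the clamp loader and had 9.38, 9.24 and 9.75 with Ota low dose, against 11.41, 11.57 and 11.77 in its controls. With Aa low dose it had 11.38, 11.62 and 11.38, against 11.78, 11.68 and 11.54 in controls. The Ota arrays all lay under 10, and the other 9 arrays lay over 11. Its difference was -1.93 ± 0.21 (adjusted p = 0.00105). MCM10, a DNA replication factor, changed by -0.38 ± 0.15 with Ota (adjusted p = 0.0941) and 0.97 ± 0.15 with Aa, a difference of -1.35 ± 0.21 (adjusted p = 0.00529). CDC6, a licensing factor, changed by -0.62 ± 0.18 with Ota and 0.67 ± 0.18 with Aa, and its difference was -1.29 ± 0.26 (adjusted p = 0.0155). The single effects of CDC6 lost their call in some fits without 1 array, with adjusted p up to 0.112 for Ota and 0.0759 for Aa, and in the fit of all 36 arrays its difference had an adjusted p of 0.0706. E2F7, a repressor of the E2F program, had a difference of -1.35 ± 0.15 (adjusted p = 0.00105), which the fit of all 36 arrays did not call (adjusted p = 0.124). EXO1, a repair nuclease, had a difference of -1.40 ± 0.22, BLM, a DNA helicase, one of -1.20 ± 0.21, and FANCG, of the Fanconi core complex, one of -1.26 ± 0.21. Cyclin E1 (CCNE1) fell by 0.64 with Ota and rose by 0.65 with Aa.

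The promoters of these genes are shown because E2F factors read a short motif there. The 8 letters TTTCCCGC, TTTCGCGC, TTTGCCGC and TTTGGCGC were sought on both strands in the 250 bases before the start of each gene (RefSeq, GRCh38.p14). The motif was present in 12 of 38 DNA replication genes (31.6%) and 4 of 14 E2F and G1 cyclin genes (28.6%) that have a promoter in the table. It was present in 419 of 8874 tested genes (4.72%) and 979 of all 35116 promoters (2.79%). Among members of both lists, 5 of 17 called for the difference held it (29.4%), and 11 of 35 not called did (31.4%). The 5 are given 5′ to 3′ with the match in capitals, and the match begins 42 bases before the start in E2F2, 31 in GINS2, 59 in PCNA, 55 in RFC3 and 18 in POLE. A match is a description of these letters and no evidence of binding. The coordinates are chr1:23531234-23531483 (minus strand), chr16:85688955-85689204 (minus), chr20:5126623-5126872 (minus), chr13:33817899-33818148 (plus) and chr12:132687343-132687592 (minus).
E2F2: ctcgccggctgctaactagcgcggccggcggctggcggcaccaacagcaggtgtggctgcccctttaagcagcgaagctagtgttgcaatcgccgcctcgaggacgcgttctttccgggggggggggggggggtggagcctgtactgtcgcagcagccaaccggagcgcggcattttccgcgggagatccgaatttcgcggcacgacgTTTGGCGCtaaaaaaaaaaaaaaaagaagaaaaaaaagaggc
GINS2: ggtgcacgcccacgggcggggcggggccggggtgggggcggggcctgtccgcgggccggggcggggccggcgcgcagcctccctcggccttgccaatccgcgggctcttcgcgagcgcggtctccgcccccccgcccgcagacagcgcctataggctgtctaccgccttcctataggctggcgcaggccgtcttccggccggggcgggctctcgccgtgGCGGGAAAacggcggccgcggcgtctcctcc
PCNA: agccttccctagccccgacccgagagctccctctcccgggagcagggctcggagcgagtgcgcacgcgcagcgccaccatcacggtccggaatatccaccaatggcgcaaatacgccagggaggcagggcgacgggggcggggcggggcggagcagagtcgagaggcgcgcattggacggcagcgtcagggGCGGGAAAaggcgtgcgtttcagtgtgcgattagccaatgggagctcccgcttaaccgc
RFC3: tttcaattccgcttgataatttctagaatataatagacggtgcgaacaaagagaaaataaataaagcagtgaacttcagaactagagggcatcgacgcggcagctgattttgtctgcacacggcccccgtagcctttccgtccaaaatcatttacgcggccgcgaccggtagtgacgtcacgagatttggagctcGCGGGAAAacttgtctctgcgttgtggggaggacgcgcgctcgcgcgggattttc
POLE: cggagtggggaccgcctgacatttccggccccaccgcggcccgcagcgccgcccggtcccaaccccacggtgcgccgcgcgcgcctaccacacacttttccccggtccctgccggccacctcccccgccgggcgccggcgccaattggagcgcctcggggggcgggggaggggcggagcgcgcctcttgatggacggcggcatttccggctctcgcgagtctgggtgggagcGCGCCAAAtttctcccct
GINS2, a subunit of the replicative helicase, fell by 1.48 with Ota and had -0.24 with Aa. PCNA, the sliding clamp, had -0.30 with Ota and rose by 0.45 with Aa. RFC3, another clamp loader subunit, fell by 0.99 with Ota and had 0.11 with Aa, and POLE, the leading strand polymerase, had -0.36 with Ota and rose by 0.62 with Aa.

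**Figure D2:**
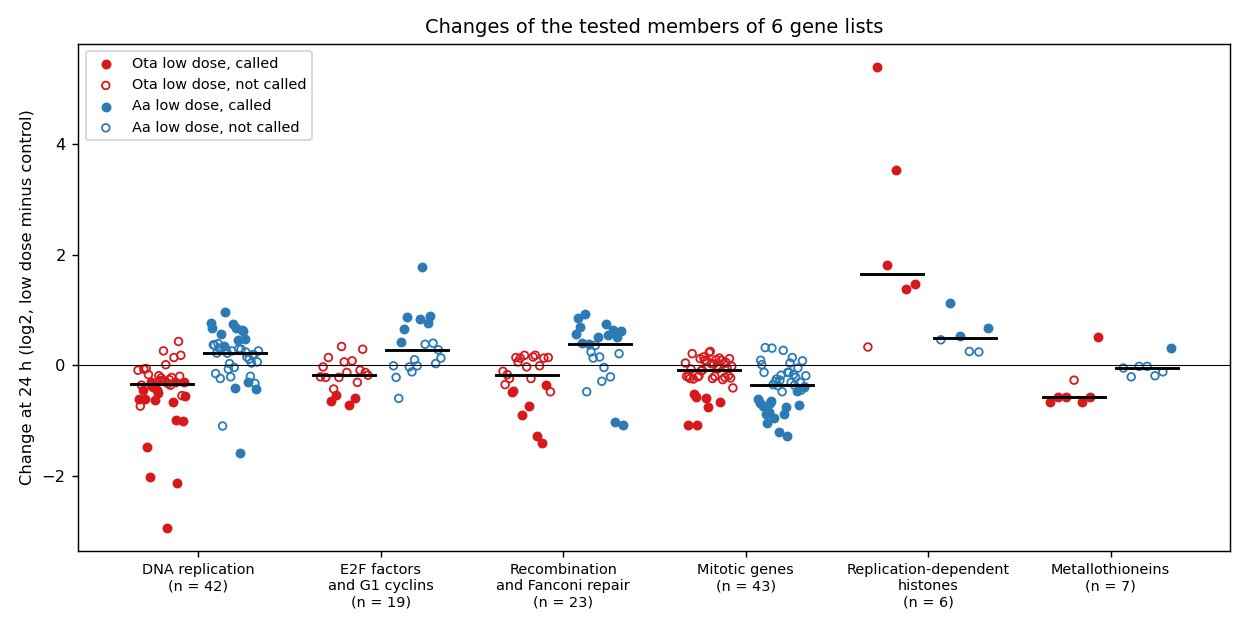
Change at 24 h (log2, low dose minus control) of each tested member of 6 gene lists with Ota low dose (red, left) and Aa low dose (blue, right), with filled points for called changes and a bar at the list median. In the DNA replication list the Ota points centre on -0.34 and the Aa points on 0.23, while in the mitotic list the Aa points centre on -0.35 and the Ota points on -0.09.

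Of 43 mitotic genes, 7 fell with Ota, near the 17.2% of all genes, and 16 fell with Aa, against 14.6% of all genes. None of them rose with either. In the difference 4 were higher and 1 lower, against 2.34% higher and 5.29% lower over all genes. The median difference was 0.25 against -0.05 over all genes. KIF14, among the 4, stayed called in 2 of 12 fits without 1 array and was not called with the replicate block (adjusted p = 0.0501). Leaving out 1 array gave 1 to 6 higher differences. KIF20A, a kinesin of cell division, had 10.46, 10.84 and 10.64 with Ota low dose, against 10.58, 10.65 and 10.67 in controls, which overlap. With Aa low dose it had 9.83, 10.14 and 9.57, against 10.83, 11.28 and 11.28 in controls, all lower. Its difference was 1.3 ± 0.24 (adjusted p = 0.00981). AURKB, a kinase of chromosome segregation, was the 1 mitotic gene lower in the difference: it fell by 1.08 ± 0.17 with Ota and had 0.09 ± 0.17 with Aa, and its difference of -1.18 ± 0.24 (adjusted p = 0.0167) was not called when its probe sets were averaged (adjusted p = 0.549). MKI67, a proliferation marker, had -0.67 with Ota (adjusted p = 0.00216) and -0.17 with Aa, and its difference of -0.50 was not called (adjusted p = 0.0952). Its probe sets disagreed, with 0.25 and 0.33 for Ota in 2 of the others, and their mean of -0.13 was not called with Ota (adjusted p = 0.478).

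Histone genes rose by more with Ota. Of 20 genes listed, 14 had a probe set and 6 were tested, and of these 5 rose with Ota and 3 with Aa, with 4 higher in the difference. Over all genes 6.97% rose with Ota. H2AC6, a histone H2A gene, had 10.01, 10.25 and 10.54 with Ota low dose, against 4.93, 4.06 and 5.61 in controls, and 5.44, 4.95 and 5.59 with Aa low dose, against 4.08, 4.34 and 4.19 in controls. Ota arrays stood over 4 log2 units above every other array. The rise was 5.40 ± 0.32 with Ota and 1.13 ± 0.32 with Aa, and the difference was 4.27 ± 0.45 (adjusted p = 0.00105). Without the filter on low values the Aa rise was not called (adjusted p = 0.0754). H2BC4, a histone H2B gene, lay at or under 4 on all Ota controls, rose at least 8.90-fold with Ota and changed by 0.25 ± 0.29 with Aa. It passed the filter through its Ota low arrays, so its values, counted above, are a description. H2BC12 rose by 1.82 ± 0.15 with Ota and 0.53 ± 0.15 with Aa (adjusted p = 0.0251, and up to 0.073 without 1 array), with a difference of 1.29 ± 0.21. The list of metallothioneins, small metal-binding proteins, had 7 members tested, the zinc exporter SLC30A1 included. Of these, MT1E, MT1F, MT1H, MT1X and MT2A fell with Ota by 0.57 to 0.67, none of these 5 was called with Aa, and MT1E alone was called for the difference (-0.61 ± 0.14, adjusted p = 0.0244). Leaving out 1 array ended that call in 6 of 12 fits (adjusted p up to 0.0568). Metallothionein genes are near-identical copies, so which copy a probe set read is uncertain.

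**Figure D3:**
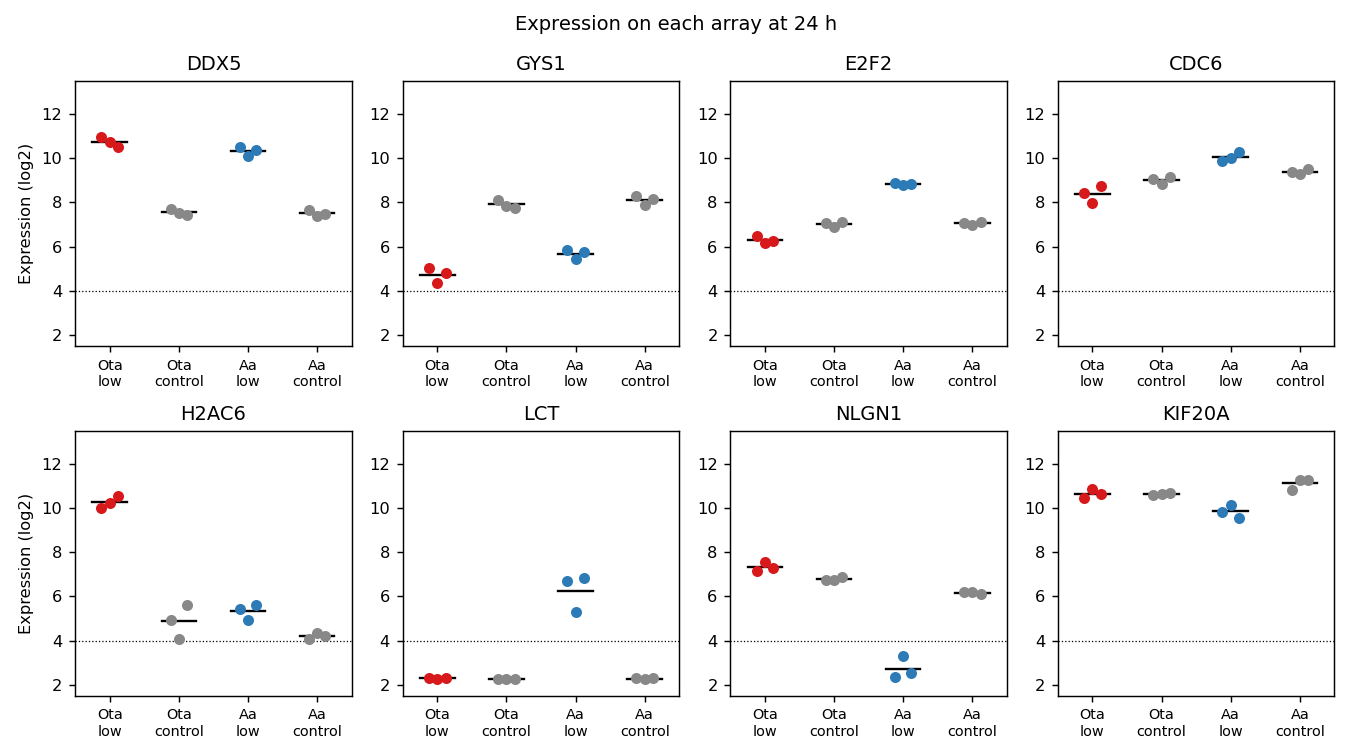
Log2 expression on each array at 24 h (points) and group means (bars) for 8 genes, with Ota low dose and Aa low dose each left of their control and the log2 value of 4 as a dotted line. DDX5 and GYS1 moved alike with both, H2AC6 rose most with Ota, LCT rose and NLGN1 fell with Aa, and E2F2 and CDC6 moved in opposite directions.

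Genes higher in the difference were often long ones that fell with Aa. Gene length was taken from the RefSeq table as the genomic span. Of 349 tested genes of at least 300 kb, Ota low dose lowered 8.02% and Aa low dose 46.4%, and 21.5% were higher in the difference against 0.86% lower. Their median change was 0.09 with Ota and -0.58 with Aa, and the change was below 0 in 139 of them with Ota and in 293 with Aa. Of the 162 lowered by Aa, 137 were not called with Ota, 20 fell and 5 rose. Of 2136 genes under 10 kb, Ota lowered 31.2% and Aa 18.6%. The shares lowered by Ota fell with length over the 5 classes shown in the bar plot, and those lowered by Aa were lowest between 30 and 100 kb, at 10.3%. Genes higher in the difference had a median length of 108.4 kb, those lower one of 21.9 kb, and all genes one of 30.8 kb. The share higher in the difference was 41.8% with the replicate block and 13.2% in the fit of all 36 arrays. Without the filter on low values it was 4.9% of 776 long genes, of which Aa lowered 16.1%. Without replicate 2 of Aa low dose, 43.6% of the longest class were higher in the difference, while the other 11 leave-outs gave 11.5% to 18.6%.

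**Figure D4:**
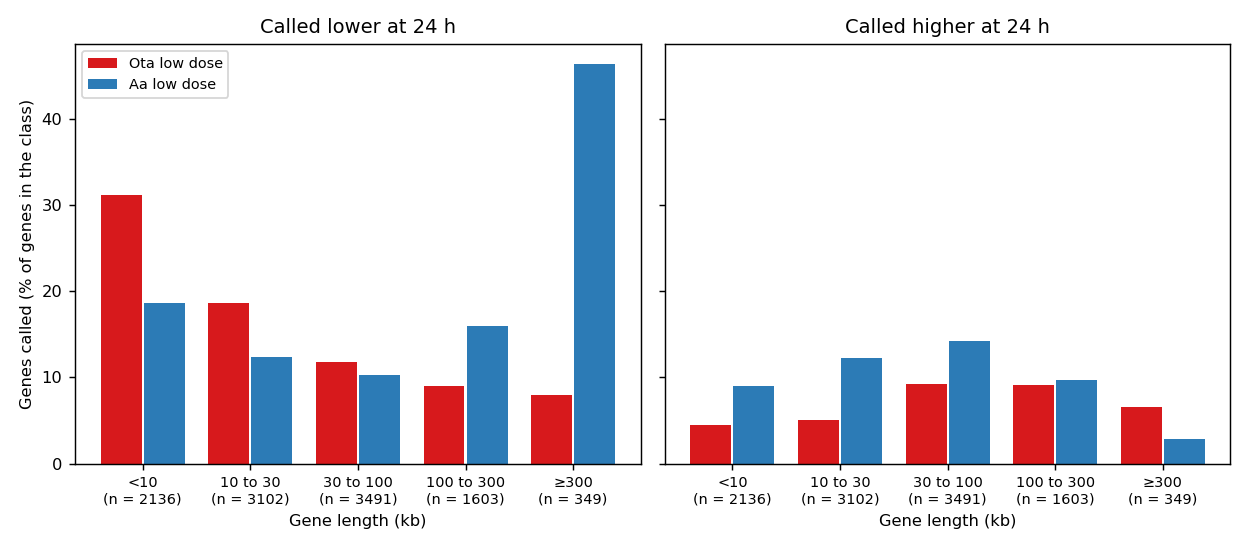
Share of tested genes called lower (left) and higher (right) with Ota low dose (red) and Aa low dose (blue) at 24 h, in 5 classes of gene length in kb. In the class of at least 300 kb, 8.02% were lower with Ota and 46.4% with Aa, and under 10 kb 31.2% and 18.6%.

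NLGN1, a synaptic adhesion protein whose gene spans 898.4 kb, had 7.15, 7.57 and 7.28 with Ota low dose, against 6.76, 6.75 and 6.89 in Ota controls, and 2.36, 3.32 and 2.53 with Aa low dose, against 6.18, 6.19 and 6.10 in Aa controls. The Aa arrays lay far below every other array. The gene was at least 4.46-fold lower with Aa, and its difference of 3.95 ± 0.29 (2.69 with values at or under 4 set to 4) had an adjusted p of 0.000143. WWOX, an oxidoreductase at a fragile site, had 8.66, 9.07 and 8.84 with Ota low dose, against 8.42, 8.71 and 8.60 in controls, and 4.15, 6.03 and 4.24 with Aa low dose, against 7.80, 8.28 and 7.54 in controls. The Aa change was -3.06 ± 0.40 and the Ota change 0.28 ± 0.40. KIF26B, a kinesin-like protein in 554.4 kb, rose by 1.11 ± 0.25 with Ota and fell by 2.03 ± 0.25 with Aa, but the fit of all 36 arrays did not call its rise (adjusted p = 0.0627). CEP112 and TENM4, in 556.6 and 788.2 kb, also rose with Ota and fell with Aa, with differences of 2.62 and 2.48. The Ota calls of TENM4 and AFF3 were lost in some fits without 1 array. That of TENM4 was also lost in the fit of all 36 arrays (adjusted p = 0.0552). AFF3, in 597.2 kb, rose by 0.85 ± 0.22 with Ota and lay at or under 4 on all Aa low arrays, at least 1.27-fold lower than its controls, and its difference was 1.19 with values at or under 4 set to 4. It already differed between the vehicle controls, by 0.93 (adjusted p = 0.0305), and with that floor its fall with Aa was not called (adjusted p = 0.166). DPYD, the enzyme that breaks down pyrimidines, was at least 1.57-fold lower with Aa, and its difference of 3.09 ± 0.53 was lost when values at or under 4 were set to 4 (adjusted p = 0.0688). IGFBP3, a short gene for a growth factor carrier, was the fifth gene named in this opposite direction, with 0.99 ± 0.20 for Ota and -0.78 ± 0.20 for Aa. The fit of all 36 arrays called neither its difference (adjusted p = 0.0598) nor its effect with Ota (0.08) or with Aa (0.169).

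Several genes near or under 4 in all controls were high with 1 compound. LCT, OIT3, ANKRD18A, WNK4 and DHRS2 exceeded 4 only on the 3 arrays of 1 low dose and passed the filter through that group, so they had to differ and their values are a description. LCT, the intestinal lactase, had 2.29, 2.28 and 2.30 with Ota low dose, against 2.28 on all 3 Ota controls, and 6.70, 5.28 and 6.81 with Aa low dose, against 2.29, 2.26 and 2.29 in Aa controls. It was at least 4.81-fold higher with Aa, and its difference was -2.26 with values at or under 4 set to 4. OIT3, a secreted liver protein, was at least 6.00-fold higher with Aa and ANKRD18A at least 5.14-fold. FGF18, a growth factor, had 8.51, 6.23 and 8.37 with Aa low dose, against 4.13, 3.90 and 4.26 in controls. It had 3.13, 4.10 and 3.20 with Ota low dose, against 3.24, 3.03 and 3.16 in controls, which overlap. Without the filter on low values its difference was not called (adjusted p = 0.0661). WNK4, a kinase of salt transport, was at least 2.41-fold higher with Aa. DHRS2, a reductase, was at least 4.45-fold higher with Ota and lay at or under 4 on all Aa arrays. With values at or under 4 set to 4, the difference was called neither for WNK4 (adjusted p = 0.202) nor for DHRS2 (0.0589). ANGPTL4, a lipid-regulating secreted protein, had 5.47, 5.61 and 6.46 with Aa low dose, against 3.39, 3.29 and 4.22 in controls, a rise of 1.77 with values at or under 4 set to 4. All 6 Ota arrays lay at or under 4. ANGPTL4 passed the filter through its Aa low arrays, so its values are a description too.

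Other genes fell with Ota and either rose or had no called change with Aa. PFKFB2, which controls glycolytic flux, had 4.54, 3.87 and 4.79 with Ota low dose, against 6.80, 6.83 and 6.82 in controls. With Aa low dose it had 7.31, 6.64 and 6.28, against 5.82, 6.52 and 6.15 in controls, which overlap. Its difference was -3.0 ± 0.40 (adjusted p = 0.00228). SPICE1, a spindle protein, changed by -3.29 ± 0.40 with Ota, where 2 of 3 low dose arrays lay at or under 4, and -0.67 ± 0.40 with Aa. Its difference was not called without the filter on low values (adjusted p = 0.0673). XPA, a scaffold of nucleotide excision repair, had 7.03, 6.68 and 7.04 with Ota low dose, against 7.99, 7.99 and 8.24 in controls, and 7.98, 7.98 and 8.01 with Aa low dose, against 8.21, 7.99 and 8.12 in controls. Its difference was -1.04 ± 0.17 (adjusted p = 0.00668; 0.0595 in the fit of all 36 arrays). FAM111A, a protease that aids replication, fell by 0.99 ± 0.12 with Ota and rose by 0.84 ± 0.12 with Aa, and its treated arrays lay apart from controls both ways. IER2, an immediate early gene, likewise fell by 1.08 ± 0.13 and rose by 0.55 ± 0.13, a difference of -1.63 ± 0.18 (adjusted p = 0.00106). EPPK1, ADAMTS15 and NAPB had differences of -1.72, -2.13 and -1.92, and were called lower with Ota and higher with Aa. The Ota calls of ADAMTS15 and NAPB were lost in some fits without 1 array. That of NAPB was also lost in the fit of all 36 arrays (adjusted p = 0.0729). The fit of all 36 arrays called EPPK1 neither with Ota (adjusted p = 0.108) nor with Aa (0.0592), and averaged probe sets gave adjusted p of 0.0668 for EPPK1 and 0.32 for NAPB with Ota.

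Stress-response lists had a minority of members lower in the difference, where the share over all genes was 5.29%. Of 24 p53 targets, 6 fell with Ota, 3 rose and 4 fell with Aa, the Aa counts near the 11.6% and 14.6% of all genes, and 5 were lower in the difference, but 1 to 2 were when arrays were rescaled and 1 to 5 without 1 array. CDKN1A, the p21 cell cycle inhibitor, had 8.97, 8.87 and 8.78 with Ota low dose, against 8.79, 8.21 and 8.53 in controls, and 10.49, 10.32 and 10.24 with Aa low dose, against 9.12, 9.40 and 9.26 in controls. The Ota groups overlapped and the Aa groups did not, and its vehicle controls differed by -0.75 (adjusted p = 0.016). It rose by 1.09 ± 0.15 with Aa and had 0.36 ± 0.15 with Ota. Its difference of -0.73 ± 0.21 was just not called (adjusted p = 0.0543, and 0.0362 with the replicate block). Its Ota rise was called with shifted medians (0.48, adjusted p = 0.0241) and after quantile normalization (0.46, adjusted p = 0.0368). MDM2, which degrades p53, changed by -0.03 and -0.02, with a 95% interval of the difference of -0.49 to 0.47. AEN, a p53-induced nuclease, rose by 0.68 ± 0.12 with Aa and had -0.32 ± 0.12 with Ota, with a difference of -1.0 ± 0.18 (adjusted p = 0.00867).

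Among 35 genes of the ATF4 response to amino acid shortage, 5 fell with Ota, near the 17.2% of all genes, 8 rose with Aa, against 11.6%, and 6 were lower in the difference. DDIT4, a brake on mTOR, fell by 1.61 ± 0.17 with Ota and had -0.41 ± 0.17 with Aa. CEBPG, a partner of ATF4, rose by 1.07 ± 0.11 with Aa and had -0.03 ± 0.11 with Ota, though its averaged probe sets gave an adjusted p of 0.172 for the difference. TRIB3 fell by 0.75 ± 0.09 with Ota and DDIT3, which encodes CHOP, by 0.76 ± 0.10, while with Aa TRIB3 had 0.04 and DDIT3 -0.03. The fit of all 36 arrays did not call the difference of DDIT3 (adjusted p = 0.47) or of HMOX1 (0.165). HMOX1, haem oxygenase of the NRF2 response, rose by 0.80 ± 0.16 with Aa and had -0.30 ± 0.16 with Ota, with a vehicle difference of -0.78 (adjusted p = 0.0209). NQO1, another NRF2 target, fell by 0.90 ± 0.18 with Ota and had -0.27 ± 0.18 with Aa, and its difference was not called (adjusted p = 0.147). Of 32 interferon-stimulated genes, 8 fell with Ota, against 17.2% of all genes, 4 rose and 3 fell with Aa, and 2 were lower in the difference, near the 5.29% of all genes. F3, tissue factor, rose by 1.66 ± 0.24 with Ota and had 0.08 ± 0.24 with Aa, a difference that the fit of all 36 arrays did not call (adjusted p = 0.145).

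Over all genes 17.2% fell and 6.97% rose with Ota, and 11.6% rose and 14.6% fell with Aa. For the difference, 5.29% of all genes were lower and 2.34% higher. Of 14 glucocorticoid receptor targets, 5 fell and 1 rose with Ota, 4 rose with Aa, and 4 were lower in the difference. ANGPTL4, counted among the rises with Aa and the lower differences, passed the filter through its Aa low arrays. Of 27 immediate early genes, 5 fell and 1 rose with Ota, and 8 rose and 4 fell with Aa. The counts of falls lay near the shares over all genes. In the difference, 6 of the 27 were lower and 1 higher, with 3 to 7 lower when 1 array was left out. Of 22 nucleotide excision repair genes, 4 were lower in the difference, and 1 after either rescaling. Kidney injury markers had 0 of 21 members called for the difference, cytosolic ribosomal proteins 0 of 21, oxidative phosphorylation genes 0 of 27 and glycolysis genes 0 of 33. With 7.63% of all genes called, lists of these sizes would hold few. HAVCR1, the kidney injury molecule, changed by 0.01 ± 0.21 with Ota and -0.23 ± 0.21 with Aa, with a 95% interval of the difference of -0.41 to 0.88. ASNS, asparagine synthetase, changed by -0.06 and 0.08, with an interval of -0.62 to 0.34.

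Arrays of the low doses at later times, from other cultures with their own controls, were read for the same genes. They are Ota low dose at 72 h and Aa low dose at 48 h, so their times differ and no difference between them was formed. Ota at 72 h changed 27.5% of 10810 genes and Aa at 48 h 41.4%. Of 336 genes higher with both at 24 h, 174 (51.8%) were higher again with Ota at 72 h, and 250 (74.4%) with Aa at 48 h. Over all genes 15.2% were higher with Ota at 72 h and 19.7% with Aa at 48 h. Of 819 genes lower with both, 365 (44.6%) were lower with Ota at 72 h and 628 (76.7%) with Aa at 48 h, against 12.4% and 21.7% of all genes. Of 246 genes whose difference was higher at 24 h, 157 were lower with Aa at 48 h and 18 higher, while Ota at 72 h had 65 higher and 10 lower. Of 560 genes whose difference was lower, 318 were higher with Aa at 48 h and 51 lower, while with Ota at 72 h 107 were higher and 124 lower. E2F2 was 1.25 higher than control with Ota at 72 h and 2.33 higher with Aa at 48 h, against its fall with Ota at 24 h. MCM10 (3.10) and E2F7 (1.82) were also higher with Ota at 72 h. RFC4 was still lower with Ota at 72 h, by 0.92, and H2AC6 still higher, by 3.01. NEB and AOC3, high with both at 24 h, had -0.15 and -0.04 with Ota at 72 h, and were 4.23 and 4.11 higher with Aa at 48 h.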

How the data were processed

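The authors deposited log2 expression values per probe set made with GCRMA, per the submitters' processing notes, whose version is not given in the sources used here; GCRMA corrects background from probe sequence, and values at or under 4 were treated here as near background. Whether all arrays were normalized together is not stated in the labels. Neither detection calls nor scan dates were used, and 3 arrays per group limit the precision.

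Of 54675 probe sets, 62 controls were dropped, 41091 had 1 symbol in the platform annotation, 1801 several and 11721 none; 41037 matched RefSeq (GRCh38.p14) identifiers. Each of 19775 genes was represented by its brightest set, with sets ending in _x_at last. Genes over 4 on at least 3 of the 12 arrays were fitted by group means with limma 3.58.1 (R 4.3.3; lmFit and eBayes; 8 residual degrees of freedom), Benjamini-Hochberg adjusted. The later arrays were fitted alike. Where a whole group lay at or under 4, the fold is a lower bound. The procedure was tested on simulated data, in which 100 genes were changed with Ota by 1 log2 unit and 100 by 2. The Ota effect was called in 81 and 99 of these, and the difference of effects in 59 and 90. A gene that was not called can therefore still differ. The simulated arrays were drawn independently, without the pairing of same-numbered cultures. Figures used matplotlib 3.10.9 in Python 3.11.15. P-values of the main fit measure the spread between the cultures of a group, with the part shared by same-numbered cultures left in.

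Same-numbered cultures of a compound deviated together (correlation 0.32 to 0.54 in all 6 pairs, at most -0.08 for other numbers), so the numbers pair them. Across compounds the correlations were -0.01 to 0.16. The main fit did not use this pairing, and its calls and adjusted p-values are those of unpaired groups. Only the replicate block takes the pairing in. Named genes followed a rule: the largest shared rises and falls, opposite changes and differences, the largest called differences in lists with at least 3 differing members or 25 percent called in either dose, and a fixed set. Members, rules and lists were chosen with earlier results of these data known, and some further genes were named after their values were seen. Alternatives were scaling, filters, a floor at 4, all 36 arrays, mean over probe sets, an intensity trend, the replicate block and leaving out each array.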

Additional observations from a re-analysis of the deposited data

Results flagged for a closer look

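Probe sets without a single gene symbol were outside the comparisons of genes above. They were tested in a separate fit of the same design, with p-values adjusted over these sets alone. Of 3112 such sets past the same filter, 217 (6.97%) were called for the difference of the low dose effects, 96 higher and 121 lower. In the main fit 7.63% of the 10686 genes tested were called. The set with the largest difference, which carries several symbols, averaged 3.75 ± 0.73 with Ota low dose and 9.50 ± 0.11 in Ota controls, and 8.95 ± 0.13 with Aa low dose and 9.61 ± 0.17 in Aa controls (SD, n = 3 each). Its difference was -5.09 ± 0.41 (SE; limma adjusted p = 0.000247). The groups of 3 arrays were too small for a test of single outlying arrays.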

How the results depend on the processing

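Total counts of calls kept within 1.5 times their main value except under the settings given here; counts in 1 direction, in gene lists and of long genes moved by more under some. Ota rises numbered 1277 with arrays shifted to 1 median (745 without), opposite genes higher with Ota 25 after quantile normalization (12 without). Without a filter on low values, where 19775 genes entered the adjustment, 511 differences and 488 vehicle differences were called. With the replicate block, the difference had 2078 calls, the same-direction genes numbered 1812 and the opposite genes 214; the vehicle comparison could not be fitted with it. With all 36 arrays in 1 fit, opposite genes numbered 35. Leaving out 1 array gave 403 to 1354 differences (815 with all; highest without replicate 2 of Aa low dose), 1703 to 2723 Ota calls, 2041 to 3001 Aa calls, 885 to 1153 same-direction and 41 to 118 opposite genes, 203 to 860 vehicle calls, 2050 to 3143 Ota calls at 72 h and 3554 to 4694 Aa calls at 48 h. No named gene's called change reversed; the cause of these shifts was not tested. Of the 815 genes, 388 to 769 were called again without 1 array, and 807 with the block. With the mean over probe sets, 483 of 753 were called again and 18 had the other sign. Of 66 named genes called for the difference, 49 stayed called in all 12 leave-outs; the others were ARRDC3, CCNE2, CIART, DDB2, DUSP1, EGR1, GCNA, IL20RB, JUN, KEAP1, KIF14, MT1E, PSMD2, PSME4, RPA2, TAP1 and TRIAP1. The block called the difference also for CDKN1A, GYS1, EEF1A1, MPND and ATF3, and no longer for KIF14. It also called the Ota effect of AEN, BLM, MCM10, CCNE2, CYP1B1, JUN and TXNIP and the Aa effect of FANCG, DDIT4 and HMGCS1, no longer called that of IRF9 with Aa, and changed no other named call. Signal near background limits genes under a log2 value of 4.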
